A study of Mus musculus with 5 samples.

Results

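Endothelial cells take fatty acids from the blood and hand them to the tissue beneath, and the 10 genes examined here serve steps of that route and the storage and synthesis of lipid. Lipoprotein lipase (Lpl) splits the triglyceride of circulating lipoproteins. Gpihbp1, an anchored protein of capillary endothelium, holds Lpl on the luminal face of the vessel. Angptl4 is a secreted inhibitor of Lpl. Cd36 is a surface receptor that takes up long-chain fatty acids. Fabp4 and Fabp5 carry fatty acids inside the cell, Pparg is a nuclear receptor that binds fatty acids and drives genes such as Cd36, Fabp4, Angptl4 and Plin2, and Plin2 coats the lipid droplet. Fasn builds palmitate and Scd1 introduces a double bond into saturated fatty acids. The genes were taken as a list of 10 names, which made up 10 of the 37074 gene names on the array, and every probe carrying 1 of these names was used, 19 of 56605 probes. All 10 names were found.

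The samples were liver sinusoidal endothelial cells (LSECs) of mouse liver, tumor endothelial cells (TECs) from tumors grown in mouse liver from the hepatoma lines HAK-1B, Hepa1-6 and KYN-2, and Hepa 1-6 cells in culture, with 1 array per condition. No drug or genetic change is given in the labels for any of them. The labels give the strain C57BL/6 for the LSECs and for all 3 TECs and C57L for the cultured cells. The lines HAK-1B and KYN-2 came from human tumors, and the study's methods describe young female C57BL/6 or BALB/c nu/nu mice, the latter lacking T cells, without saying which host carried which tumor. The array methods name Huh-7 where the labels name HAK-1B, and the labels were followed. Endothelial cells were collected on beads against CD31, so the RNA is that of a bead fraction and not of sorted single cells. The study checked the purity of these fractions by flow cytometry. Holding some cancer cell contamination to be unavoidable, it took cancer cell genes off its TEC list, and no gene was removed for that reason here. With a single array per condition no spread between animals could be measured, and the 3 TECs differ in tumor line, so they are not replicates of each other.

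The share of probes well above background was 54.1% in LSECs, 54.7 to 78.1% in TECs and 44.6% in the cultured cells, and the Hepa1-6 TEC array held the highest share. The lowest signal well above background was log2 2.85 on that array and 4.28 to 5.96 on the others. A gene well above background in Hepa1-6 TECs only can thus have a higher signal on another array. No probe was saturated. The 3 TEC arrays lay on 1 slide, and the LSECs and the cultured cells on 1 slide each, so in any comparison with LSECs the slide cannot be told apart from the group. All 10 endothelial markers (Pecam1, Cdh5, Kdr, Tek, Tie1, Emcn, Erg, Robo4, Esam and Egfl7) were well above background on all 4 endothelial arrays, whereas 2 of 10, Esam and Egfl7, were so in the cultured cells. Relative to LSECs the median log2 ratio of these markers was -2.85 in HAK-1B TECs, -2.58 in Hepa1-6 TECs and -1.60 in KYN-2 TECs, and 7 of 10 were 2-fold or more lower in all 3. The log2 of their summed signal was 18.70 in LSECs, 15.91, 15.94 and 16.94 in the TECs in the same order, and 12.08 in the cultured cells. Of 10 genes known to mark LSECs, 9 were 2-fold or more lower in all 3 TECs. In such bulk samples, fewer cells of a type and less RNA per cell cannot be told apart.

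The 10 genes did not move as a block between LSECs and TECs. In all 3 TECs only Angptl4 was 2-fold or more higher than in LSECs, where 6.34% of the genes tested were, and none of the 10 was 2-fold or more lower in all 3, where 11.0% were. Cd36, Gpihbp1 and Fabp4 were 2-fold or more lower in both HAK-1B and Hepa1-6 TECs, as 13.2% of genes were. Relative to the median of the endothelial markers, a reference chosen after seeing the data, they were not lower. The median of all genes lay above that reference too. In KYN-2 TECs the same genes stood within 2-fold of LSECs. Among the tumors many of them followed 1 order. Of the 10 genes, 7 (Cd36, Lpl, Gpihbp1, Angptl4, Fabp4, Fabp5 and Pparg) had their lowest TEC level in HAK-1B and their highest in KYN-2, an order that 9.91% of genes followed. KYN-2 was the highest TEC for 8 of 10 genes, beside 27.2% of all genes, and HAK-1B the lowest for 9, beside 33.6%. The level of each gene on each array is shown as the log2 of the normalized signal of its brightest probe, on which a step of 1 is 2-fold, and levels of different genes are not comparable because each probe binds with its own strength.

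**Figure D1:**
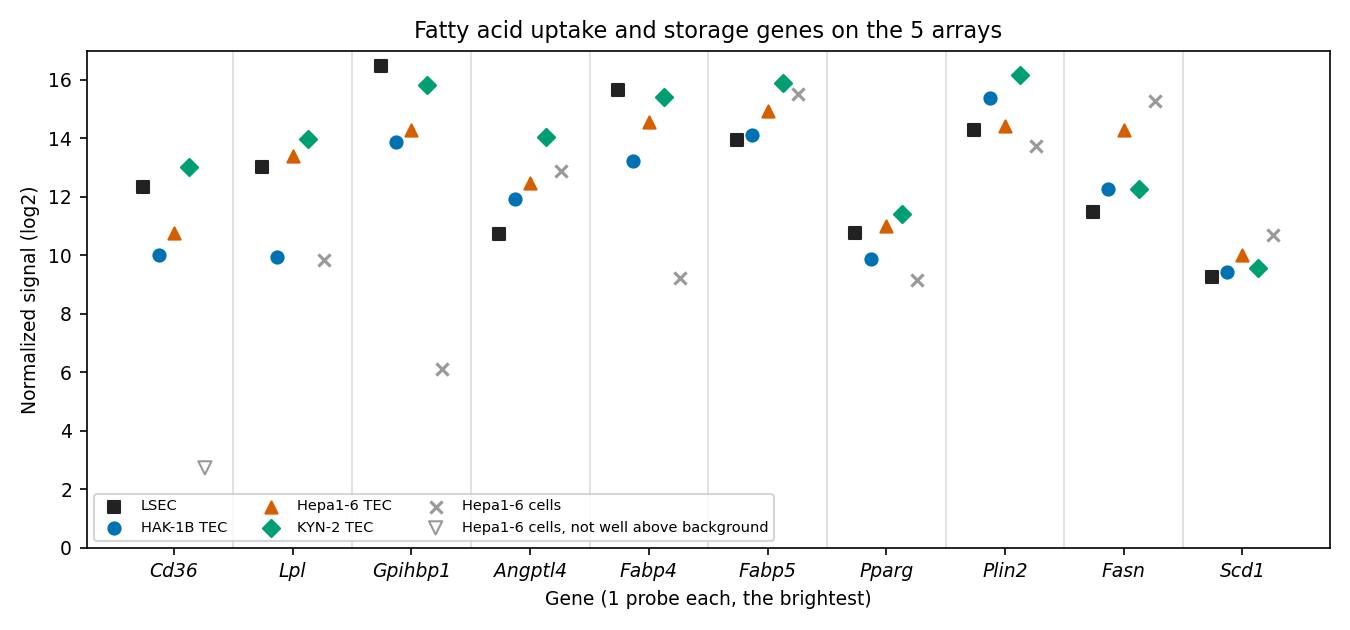
Normalized signal (log2) of the brightest probe of each of the 10 genes, with 1 point per array and no error since each condition had 1 array. KYN-2 TEC (green diamond) is the highest TEC for 8 of 10 genes and HAK-1B TEC (blue circle) the lowest for 9 of 10, and the open triangle marks Cd36 in cultured Hepa1-6 cells, which was not well above background.

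Sequence around the transcription start was at hand for 4 of the 10 genes (Cd36, Pparg, Plin2 and Fasn) as windows of 300 bases in the RefSeq promoters of build GRCm38.p6, 250 before the start and 50 after. The windows of Cd36 and Plin2 are shown as examples of genes with their highest signal in KYN-2 TECs, and that of Fasn because it did not have it there. Pparg was also highest in KYN-2 TECs, but its 3 windows are not shown. They were searched on both strands for the hypoxia response core (ACGTG or GCGTG) and for the E-box CACGTG, which holds the core ACGTG, as well as for the exact consensus of the direct repeat (DR1) that Pparg binds with a retinoid X receptor and of the sterol regulatory element. Capitals mark the matches, and CACGC is the core GCGTG read on the opposite strand.
Cd36 (chr5:17835847-17836146, minus strand): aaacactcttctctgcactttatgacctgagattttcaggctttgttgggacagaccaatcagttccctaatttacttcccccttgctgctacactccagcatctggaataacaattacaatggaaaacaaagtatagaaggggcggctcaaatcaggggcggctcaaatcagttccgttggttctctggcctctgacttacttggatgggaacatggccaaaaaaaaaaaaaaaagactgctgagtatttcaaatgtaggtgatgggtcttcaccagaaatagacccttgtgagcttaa
Plin2 (chr4:86670010-86670309, minus strand): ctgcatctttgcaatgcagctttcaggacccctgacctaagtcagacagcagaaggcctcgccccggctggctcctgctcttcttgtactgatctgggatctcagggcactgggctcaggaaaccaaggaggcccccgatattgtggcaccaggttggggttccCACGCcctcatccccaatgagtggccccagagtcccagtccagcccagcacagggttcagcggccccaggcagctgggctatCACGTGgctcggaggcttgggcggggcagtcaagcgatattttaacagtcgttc
Fasn (chr11:120824498-120824797, minus strand): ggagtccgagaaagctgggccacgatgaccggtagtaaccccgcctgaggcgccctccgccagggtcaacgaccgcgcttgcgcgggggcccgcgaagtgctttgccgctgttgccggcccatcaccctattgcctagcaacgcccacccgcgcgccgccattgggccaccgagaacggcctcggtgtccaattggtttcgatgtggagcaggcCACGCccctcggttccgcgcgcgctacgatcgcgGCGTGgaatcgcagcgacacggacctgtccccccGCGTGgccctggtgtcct
The Plin2 window held 3 hypoxia cores, which began 86, 4 and 3 bases before the start, and the latter pair is the E-box CACGTG read on either strand. The Fasn window also held 3, at 36 and 2 bases before the start and 32 bases after it. In the Cd36 window there was none. Of the 3 Pparg windows, 1 held cores at 242 and 8 bases before its start. The direct repeat and the sterol element were in none of the 6 windows. Over all 32851 promoter windows the core was in 43.8%, the E-box in 7.15%, the direct repeat in 0.0396% and the sterol element in 0.0913%, so a core match is common and is a description of the letters only.

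Of the genes that work at the vessel wall, Cd36 had a log2 signal of 12.33 in LSECs, 10.01 in HAK-1B TECs, 10.76 in Hepa1-6 TECs and 13.02 in KYN-2 TECs. Its single probe lies at chr5:17288600-17288659 of build mm9 on the minus strand, as the array files give it. Relative to LSECs the log2 ratio was thus -2.32 in HAK-1B TECs and -1.57 in Hepa1-6 TECs, or 2.97-fold lower in the latter, whereas KYN-2 TECs were 1.61-fold higher. In cultured Hepa1-6 cells Cd36 was not well above background, and at least 82.7-fold lower than in LSECs. Cd36 is also made by macrophages and platelets, whose markers are given below.

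Lpl was the gene with the widest range among the TECs. Its brightest probe (chr8:71430267-71430326, mm9, plus strand) had a log2 signal of 13.04 in LSECs, 9.93 in HAK-1B TECs, 13.41 in Hepa1-6 TECs, 13.99 in KYN-2 TECs and 9.84 in the cultured cells. HAK-1B TECs thus stood at the level of the cultured cells, 8.61-fold below LSECs and 16.7-fold below KYN-2 TECs, while Hepa1-6 and KYN-2 TECs were 1.29-fold and 1.94-fold above LSECs. Lpl is the gene of the 10 with most probes, 6 within its locus. In HAK-1B TECs all 6 were lower than in LSECs, by log2 ratios between -3.58 and -0.32, although 1 of them was not well above background there. Against KYN-2 TECs 5 of 6 were lower, and the exception, a probe to transcript ENSMUST00000101463 at chr8:71413311-71413370, had a log2 signal of 9.40 in HAK-1B and 8.49 in KYN-2 TECs. In KYN-2 TECs 3 of the 6 probes were above and 3 below LSECs, so the higher level seen with the brightest probe was not shared by all probes.

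Gpihbp1, which carries Lpl across the endothelium, had a log2 signal of 16.48 in LSECs, 13.89 in HAK-1B TECs, 14.31 in Hepa1-6 TECs and 15.83 in KYN-2 TECs. Every TEC array was below the LSEC array, by 6.00-fold, 4.50-fold and 1.56-fold in that order. In the cultured cells the signal was 6.10, or 294-fold below that of Hepa1-6 TECs. The probe lies at chr15:75428484-75428543 (mm9, plus strand). The endothelial markers were lower in the TECs as well, and relative to their median Gpihbp1 was not lower in any TEC: the differences were log2 0.26 in HAK-1B, 0.41 in Hepa1-6 and 0.95 in KYN-2. That reference was chosen after seeing the data, and in each TEC the median of all genes lay above it too.

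Angptl4 went the other way. Its log2 signal was 10.72 in LSECs, 11.94 in HAK-1B TECs, 12.47 in Hepa1-6 TECs, 14.06 in KYN-2 TECs and 12.89 in the cultured cells, and all other arrays were above LSECs. The TECs were 2.34-fold, 3.36-fold and 10.1-fold above LSECs and the cultured cells 4.50-fold. The probe lies at chr17:33911880-33911939 (mm9, minus strand). Angptl4 is known to be induced by low oxygen. Of 15 genes known to answer to hypoxia 8 were 2-fold or more higher in all 3 TECs, beside 6.34% of all genes. The median log2 ratio of the 15 to LSECs was 1.14 in HAK-1B TECs, 1.02 in Hepa1-6 TECs and 1.85 in KYN-2 TECs. Vegfa, which encodes the main growth factor of vessels, was among the 8, with log2 ratios of 5.83, 3.05 and 4.85 in the same order. Others were 2-fold or more lower in single TECs, 2 in HAK-1B (Adm at -2.80 and P4ha2 at -2.02) and 1 in Hepa1-6 (Adm at -1.45). The part of hypoxia in the level of Angptl4 was not tested.

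Both intracellular carriers were highest in KYN-2 TECs among the tumors, but they stood on opposite sides of LSECs. Fabp4, a carrier of adipocytes, macrophages and capillary endothelium, had a log2 signal of 15.66 in LSECs, 13.23 in HAK-1B TECs, 14.57 in Hepa1-6 TECs, 15.41 in KYN-2 TECs and 9.22 in the cultured cells (chr3:10204452-10204511, mm9, minus strand). It was 5.40-fold lower than in LSECs in HAK-1B TECs, 2.14-fold lower in Hepa1-6 TECs and 1.19-fold lower in KYN-2 TECs. A second probe gave 13.03, 10.95, 11.90, 13.41 and 7.20 on the same arrays, so the order among TECs held and only KYN-2 TECs moved to above LSECs. Fabp5, the carrier also found in epidermis and macrophages, had 13.94 in LSECs, 14.12 in HAK-1B TECs, 14.94 in Hepa1-6 TECs, 15.89 in KYN-2 TECs and 15.52 in the cultured cells (chr3:10016185-10016244, mm9, plus strand). KYN-2 TECs were 3.86-fold above LSECs and HAK-1B TECs 1.13-fold, and Hepa1-6 TECs were just short of 2-fold, at log2 1.00.

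Pparg had a log2 signal of 10.77 in LSECs, 9.87 in HAK-1B TECs, 11.01 in Hepa1-6 TECs, 11.43 in KYN-2 TECs and 9.17 in the cultured cells (chr6:115440213-115440272, mm9, plus strand). No TEC was 2-fold from LSECs, and the TECs lay on both sides of them. The second Pparg probe, designed to transcript GQ868648, was well above background in Hepa1-6 TECs and in the cultured cells only, at 3.04 and 8.24. It was not well above background on the other 3 arrays, although its signal in LSECs was 3.06.

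Plin2, the droplet coat, was highest in KYN-2 TECs too. Its log2 signal was 14.29 in LSECs, 15.40 in HAK-1B TECs, 14.42 in Hepa1-6 TECs, 16.18 in KYN-2 TECs and 13.76 in the cultured cells (chr4:86302847-86302906, mm9, minus strand). Both xenograft TECs were above LSECs, by 2.15-fold and 3.69-fold, whereas Hepa1-6 TECs differed by 1.09-fold. Plin2 was the exception to HAK-1B being lowest. The second probe gave 9.94, 11.23, 9.41, 12.19 and 9.71, and placed the Hepa1-6 TECs below LSECs.

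The synthesis genes did not follow that order. Fasn had a log2 signal of 11.47 in LSECs, 12.26 in HAK-1B TECs, 14.29 in Hepa1-6 TECs, 12.28 in KYN-2 TECs and 15.27 in the cultured cells (chr11:120668460-120668519, mm9, minus strand). Hepa1-6 TECs were 7.07-fold above LSECs and the Hepa1-6 line itself 13.9-fold, while both xenograft TECs were within 2-fold of LSECs. Scd1 had 9.26 in LSECs, 9.42 in HAK-1B TECs, 10.01 in Hepa1-6 TECs, 9.58 in KYN-2 TECs and 10.68 in the cultured cells (chr19:44469387-44469446, mm9, minus strand), and was 1.69-fold higher in Hepa1-6 TECs and 2.68-fold higher in the line. For both genes the Hepa1-6 TECs were the highest TEC and the line was higher still. A second Scd1 probe, on the plus strand and so opposite to the first, was well above background in Hepa1-6 TECs only, at 3.28, although its signal was 4.17 in KYN-2 TECs. Of 10 hepatocyte markers, which a liver tumor line can also carry, Alb was at log2 12.97 in LSECs, 6.51 in HAK-1B TECs, 15.54 in Hepa1-6 TECs, 8.85 in KYN-2 TECs and 13.94 in the cultured cells. Their median log2 ratio to LSECs was 0.59 in Hepa1-6 TECs, against -3.27 in HAK-1B and -2.32 in KYN-2 TECs. The log2 of their summed signal was 15.20 in LSECs, 10.61 in HAK-1B TECs, 16.14 in Hepa1-6 TECs, 11.16 in KYN-2 TECs and 14.86 in the cultured cells, with 9, 7, 9, 9 and 4 of 10 well above background. By 2-fold 4 of them were higher and 3 lower in Hepa1-6 TECs than in LSECs. The lower ones were Serpina1a and Cyp2e1, at log2 ratios of -2.19 and -1.65, and Cps1, which was not well above background in Hepa1-6 TECs. Cyp3a11 was well above background in Hepa1-6 TECs only, and Apoa1 and Ttr were not so in HAK-1B TECs. The part of tumor cells or hepatocytes in the Fasn and Scd1 signals of Hepa1-6 TECs was not tested.

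**Figure D2:**
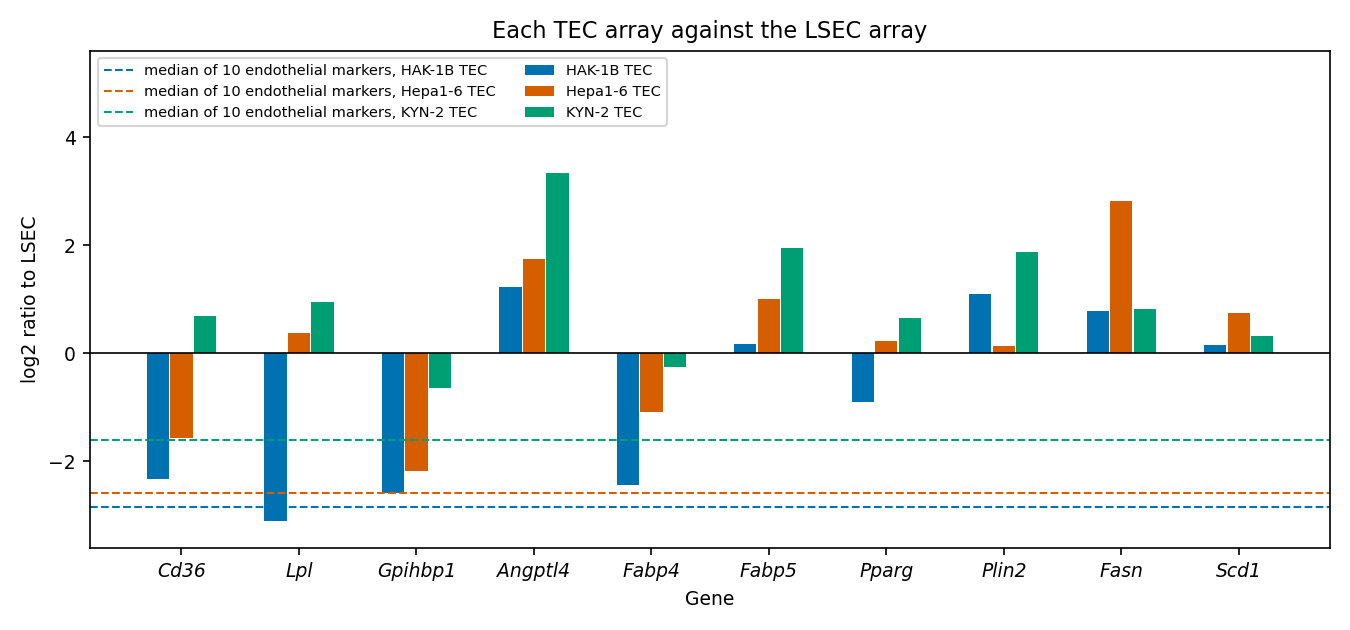
Bars show the log2 ratio of each TEC array to the LSEC array for the 10 genes (1 array each, no error), and dashed lines show the median ratio of the 10 endothelial markers in the same TEC. Angptl4 is above 1 in all 3 TECs, and Cd36, Gpihbp1 and Fabp4 are below -1 in HAK-1B and Hepa1-6 TECs. All bars but Lpl in HAK-1B TECs lie above the dashed line of their own TEC. The median of all genes (log2 -0.05 to 0.09) lies above these lines too, and they were chosen as a reference after seeing the data.

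Counts for each TEC show how far the tumors differed. In HAK-1B TECs 2 genes (Angptl4 and Plin2) were 2-fold or more higher than in LSECs, beside 17.4% of genes, and 4 (Cd36, Lpl, Gpihbp1 and Fabp4) were lower, beside 18.0%. In Hepa1-6 TECs 2 (Angptl4 and Fasn) were higher, beside 25.1%, and 3 (Cd36, Gpihbp1 and Fabp4) were lower, beside 22.0%. In KYN-2 TECs 3 (Angptl4, Fabp5 and Plin2) were higher, beside 16.8%, and none was lower, beside 18.3%. The median log2 ratio of the 10 genes was -0.37 in HAK-1B TECs, 0.30 in Hepa1-6 TECs and 0.75 in KYN-2 TECs, whereas that of all genes lay between -0.05 and 0.09.

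The study's own size rule asks for a ratio of 1.5 or more together with a Z-score of 2 or more, or for a ratio of 0.66 or less together with a Z-score of -2 or less, and the Z-score is taken over all probes kept. On these arrays the Z-score amounted to a 6.79-fold to 11.4-fold higher or a 6.77-fold to 9.84-fold lower signal in a TEC. None of the 10 genes passed it in all 3 TECs, beside 0.580% of genes higher and 1.00% lower. Single TECs gave 2 passes, Lpl lower in HAK-1B TECs (Z -2.23, beside 3.94% of genes) and Angptl4 higher in KYN-2 TECs (Z 2.42, beside 3.64%). No gene of the 10 passed as higher in HAK-1B TECs, beside 3.11%, as lower in KYN-2 TECs, beside 2.87%, or in Hepa1-6 TECs, beside 4.54% higher and 2.04% lower. In a limma fit of the 3 TECs against the single LSEC array, whose spread was taken to equal that of the TECs, 0 of 42112 probes were called after Benjamini-Hochberg adjustment, and 3581 had an unadjusted p under 0.05. Angptl4 had the smallest p of the 10 genes, with a mean log2 difference of 2.10 ± 0.99 (SE), a p of 0.0943 and a limma adjusted p of 0.665. For Gpihbp1 the values were -1.80 ± 0.93 and a limma adjusted p of 0.706. For Fasn they were 1.47 ± 1.03 and 0.805, and the adjusted p of the other 7 genes ranged from 0.834 to 0.998. With a mean of -0.59 ± 1.79 (SE), Lpl had the largest error, and its TECs were on both sides of LSECs. These errors rest on the spread between the 3 tumor lines, taken as 1 group, and not on a spread between replicates.

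HAK-1B and KYN-2 TECs allow a comparison on 1 slide between TECs from xenografts of human lines. All 10 genes were lower in HAK-1B TECs, where 48.4% of all genes were, and 7 were so by 2-fold or more, where 10.5% were. The median log2 difference, HAK-1B minus KYN-2, was -1.86 for the 10 genes and 0.02 for all genes. Lpl differed most, at -4.06, followed by Cd36 at -3.01, Fabp4 at -2.18, Angptl4 at -2.12, Gpihbp1 at -1.94, Fabp5 at -1.77 and Pparg at -1.56. Thus the genes of the vessel wall, the carriers and the nuclear receptor were all among the 7. Plin2 differed by -0.78, Scd1 by -0.16 and Fasn by -0.03, less than 2-fold. There was no test of these differences, since each side was 1 array.

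The markers of several cell types differed between the same arrays. The endothelial markers were lower in HAK-1B than in KYN-2 TECs, with a median log2 difference of -0.9996 and 5 of 10 lower by 2-fold and none higher. Relative to that median 4 of the 10 fatty acid genes (Cd36, Lpl, Angptl4 and Fabp4) were lower by 2-fold in HAK-1B TECs in place of 7, and 2 (Cd36 and Lpl) were so where each TEC was first set against its own marker median relative to LSECs. The share of all genes was not counted on either reference. All 5 platelet markers, among them the brightest, Pf4 and Ppbp, were 2-fold or more lower in HAK-1B TECs, with a median difference of -2.11. The log2 of their summed signal was 15.78 in LSECs, 15.26 in HAK-1B TECs, 15.84 in Hepa1-6 TECs, 16.98 in KYN-2 TECs and 9.17 in the cultured cells. Of the 10 macrophage markers, all well above background on the 4 endothelial arrays, 2 were lower and 3 higher in HAK-1B TECs, with a median of 0.45. The lower ones were Clec4f at -2.94 and Vsig4 at -1.69, and the higher ones Csf1r at 1.24, C1qa at 1.18 and Adgre1 at 1.04. The summed signal of the 10 markers was log2 19.35 in LSECs, 19.43, 18.61 and 18.85 in the TECs and 12.54 in the cultured cells, and the brightest were Lyz2 and Csf1r. Of the neutrophil markers 7 of 10 were higher in HAK-1B TECs and 1 (Elane at -1.32) was lower, with a median of 4.37. Their summed signal was log2 16.52 in LSECs, 17.62, 16.04 and 16.31 in the TECs and 15.27 in the cultured cells. Csf3r, at 16.45, 15.80, 15.17, 16.15 and 15.22 on these arrays, made up most of the sum on all but HAK-1B TECs. The median log2 ratio of the 10 markers to LSECs was 4.34, 3.28 and 0.84 in the TECs. The brightest were Csf3r and S100a9, and Ly6g, Ngp and Cxcr2 were not well above background in LSECs, nor Ly6g and Ngp in KYN-2 TECs. Of the stellate cell and fibroblast markers 6 of 9 were lower in HAK-1B TECs and 1 (Reln at 1.51) was higher, with a median of -1.28. Their summed signal was log2 13.68 in LSECs, 14.56, 15.54 and 15.14 in the TECs and 16.94 in the cultured cells. In the cultured cells only 2 of 10, Acta2 and Dcn, were well above background. Dcn made up most of the sum there, at 16.74, and in Hepa1-6 TECs, at 14.72. The brightest were Acta2 and Dcn. Lrat was well above background in Hepa1-6 TECs only, at log2 4.16, although its signal was 4.71 in KYN-2 TECs. Des and Col1a1 were not well above background in LSECs. Hepatocyte markers were lower by 2-fold in HAK-1B TECs in 5 of 9, with a median of -1.12, and LSEC markers in 4 of 10, with a median of -0.57. None of either list was higher by 2-fold. Of 6 adipocyte markers 3 were higher and 1 lower, with a median of 0.84. Hypoxia genes were lower by 2-fold in 9 of 15, with a median of -1.24. The part of any of these in the 7 genes was not tested.

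Adipocytes make Lpl, Fabp4, Pparg, Plin2 and Fasn in quantity, so their markers were checked on each array. Of 10 adipocyte markers 7 were well above background in LSECs, 5 in HAK-1B TECs, 9 in Hepa1-6 TECs, 3 in KYN-2 TECs and 3 in the cultured cells. Adipoq, a hormone made by adipocytes, was well above background in LSECs and Hepa1-6 TECs only, at log2 5.13 and 4.15. Plin1, the droplet coat of adipocytes, was so in Hepa1-6 TECs only, at 6.56. The log2 of the summed signal was 10.64 in LSECs, 9.19, 9.24 and 8.74 in the TECs and 9.58 in the cultured cells. Cfd, a secreted protease of adipocytes and other cells, was at 9.54 in LSECs, 6.27 in HAK-1B TECs and 5.26 in Hepa1-6 TECs, and not well above background in KYN-2 TECs. Retn was likewise not well above background in KYN-2 TECs, nor Cidec in HAK-1B and KYN-2 TECs, nor Adrb3 in HAK-1B and Hepa1-6 TECs. Ucp1 was well above background in HAK-1B and Hepa1-6 TECs only. Tusc5 was so in Hepa1-6 TECs only, at 3.20, although its signal was 3.36 in HAK-1B TECs. The brightest of the list were Lep and Slc36a2. The part of adipocytes in the fatty acid genes was not tested.

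Hepa1-6 TECs stood between the other TECs for the 4 genes of the vessel wall, both carriers and Pparg. Against KYN-2 TECs 4 genes (Cd36, Gpihbp1, Angptl4 and Plin2) were 2-fold or more lower, beside 17.5% of genes, and Fasn was higher, by 4.03-fold, beside 20.4%. HAK-1B TECs were 2-fold or more below Hepa1-6 TECs for 4 genes (Lpl, Fabp4, Pparg and Fasn), beside 22.0% of genes, and above them for none, beside 18.7%. These comparisons share arrays with that of HAK-1B and KYN-2 TECs.

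The cultured Hepa1-6 line shows which of the 10 genes the tumor cells of 1 of the tumors carry in culture. By the brightest probe of each gene and relative to LSECs, 5 genes (Cd36, Lpl, Gpihbp1, Fabp4 and Pparg) were 2-fold or more lower in the line, beside 30.9% of genes, and 4 (Angptl4, Fabp5, Fasn and Scd1) were higher, beside 28.2%. By the size rule 3 were lower (Cd36, Gpihbp1 and Fabp4, beside 4.81%) and none was higher, beside 2.59%, and here the Z-score amounted to a 39.8-fold higher or a 51.2-fold lower signal. Gpihbp1 was 1324-fold and Fabp4 87.1-fold below LSECs. By the same probes Hepa1-6 TECs were 2-fold or more above the line for these 5 genes, beside 26.1% of genes: 294-fold for Gpihbp1, 40.8-fold for Fabp4, 11.9-fold for Lpl and 3.58-fold for Pparg, while Cd36 was not well above background in the line. The second Pparg probe went the other way, and was 36.7-fold higher in the line than in Hepa1-6 TECs. By the brightest probes no gene was 2-fold or more lower in Hepa1-6 TECs than in the line, beside 22.6%. Angptl4, Fabp5, Fasn and Scd1 were lower in Hepa1-6 TECs than in the line by less than 2-fold, and their probes were well above background in both. The cultured cells had no LSECs or TECs on their slide.

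**Figure D3:**
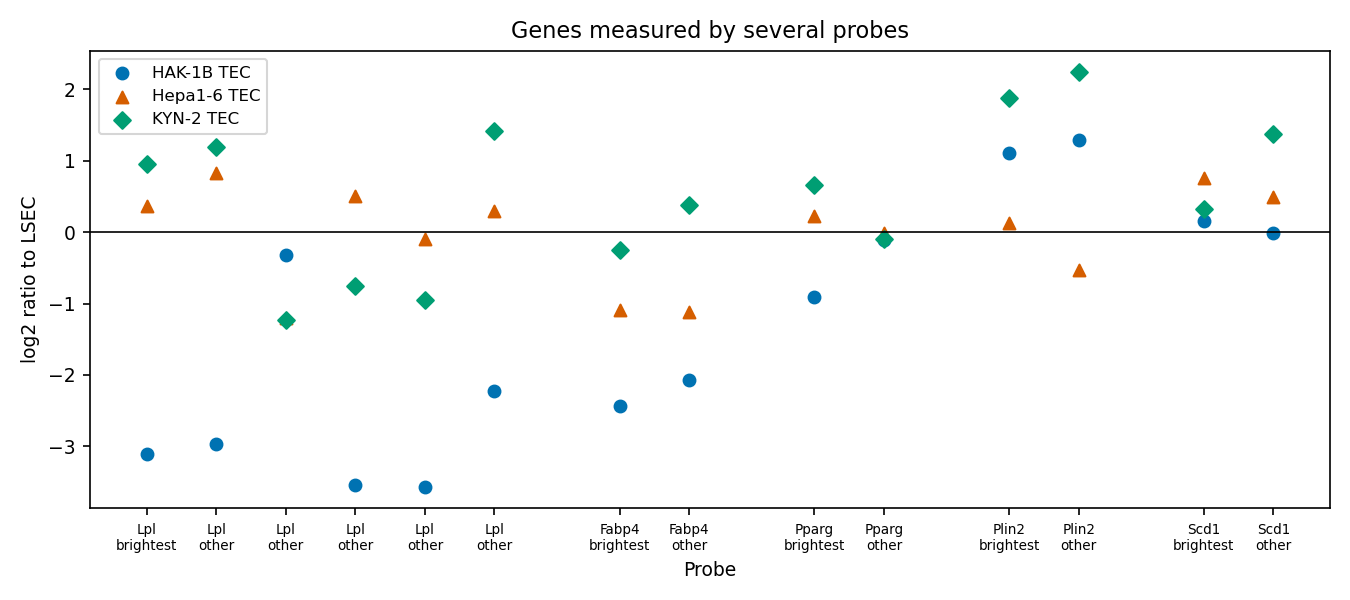
Log2 ratio to LSECs for every probe of the 5 genes measured by more than 1 probe, with 1 point per TEC. For Lpl the KYN-2 and HAK-1B points are far apart on 5 of 6 probes and cross on the third, where the Hepa1-6 point is hidden beneath the KYN-2 point, and for the second Pparg probe, not well above background in LSECs, HAK-1B or KYN-2 TECs, the points overlap near 0.

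Fatty acid metabolism holds many more genes, and 7 further lists of 145 genes covered uptake and transport, activation, storage, lipolysis, oxidation, synthesis and regulators. Angptl8 was not matched by name on the array. Of the 144 matched, 131 were tested, of which 15 (11.5%) were 2-fold or more higher in all 3 TECs, beside 6.34% of all genes, and 19 (14.5%) lower, beside 11.0%. The other 97 were neither. By the size rule only Apoc2, the cofactor of Lpl on lipoproteins, passed in all 3 TECs, with log2 ratios of 5.68 in HAK-1B TECs, 3.93 in Hepa1-6 TECs and 3.79 in KYN-2 TECs.

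Of 23 uptake and transport genes tested, 5 were higher and 7 lower in all 3 TECs. Beside Apoc2, the heart-type carrier Fabp3 was higher, with log2 signals of 5.57 in LSECs and 8.89, 8.25 and 9.28 in the TECs. The lower genes were led by Fabp1, the liver carrier, and Slc27a5, which activates bile acids and long-chain fatty acids in hepatocytes. Slc27a5 had log2 ratios of -4.01, -2.88 and -3.62, and Fabp1 was at least 215-fold lower in HAK-1B TECs, where it was not well above background, and at log2 ratios of -2.91 and -5.59 in Hepa1-6 and KYN-2 TECs. Several of the lower genes are ones that hepatocytes make (such as Fabp1, Slc27a5, Apoc3 and Apoa5), and the median of the hepatocyte markers was below LSECs in HAK-1B and KYN-2 TECs but above them in Hepa1-6 TECs. The part of hepatocytes in these ratios was not tested. A pair of higher genes was picked out after their values were seen. Slc27a1, a fatty acid transporter, had log2 ratios of 2.79, 1.31 and 3.04. Vldlr, a lipoprotein receptor, did not stand well above background in LSECs, so that its signal was at least 4.03-fold higher in HAK-1B TECs, at least 39.6-fold in Hepa1-6 TECs and at least 52.9-fold in KYN-2 TECs. Of 7 activation genes 2 were higher and none was lower. Acsbg1, an acyl-CoA synthetase, had log2 ratios of 2.96, 2.79 and 2.17, and Acss1, which activates acetate in mitochondria, had 2.76, 1.30 and 2.81.

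Of 24 storage genes 6 were higher and 1 was lower. Soat2, which esterifies cholesterol, had log2 ratios of 3.53, 2.06 and 2.88 in the TECs, in the order HAK-1B, Hepa1-6 and KYN-2. G0s2, an inhibitor of the triglyceride lipase Pnpla2, had 6.33, 3.93 and 1.95, and so was highest in HAK-1B TECs. Hilpda, a hypoxia-inducible inhibitor of the same lipase, had 2.10, 1.93 and 2.98. Agpat9, which makes the first acylation step of glycerolipid synthesis, had 2.52, 1.73 and 2.59. The lower storage gene, named because it was the only one, was Cidec, a droplet protein of adipocytes, which was at least 5.37-fold lower in HAK-1B and 4.15-fold lower in KYN-2 TECs, where it was not well above background, and at a log2 ratio of -1.59 in Hepa1-6 TECs. Lipolysis gave 2 lower genes of 8. Mgll, which splits monoglyceride, had log2 signals of 14.14 in LSECs and 10.75, 11.66 and 12.69 in the TECs. Aadac, a hepatocyte esterase, was at least 3.53-fold and 2.73-fold lower in HAK-1B and KYN-2 TECs, and at a log2 ratio of -1.82 in Hepa1-6 TECs.

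**Figure D4:**
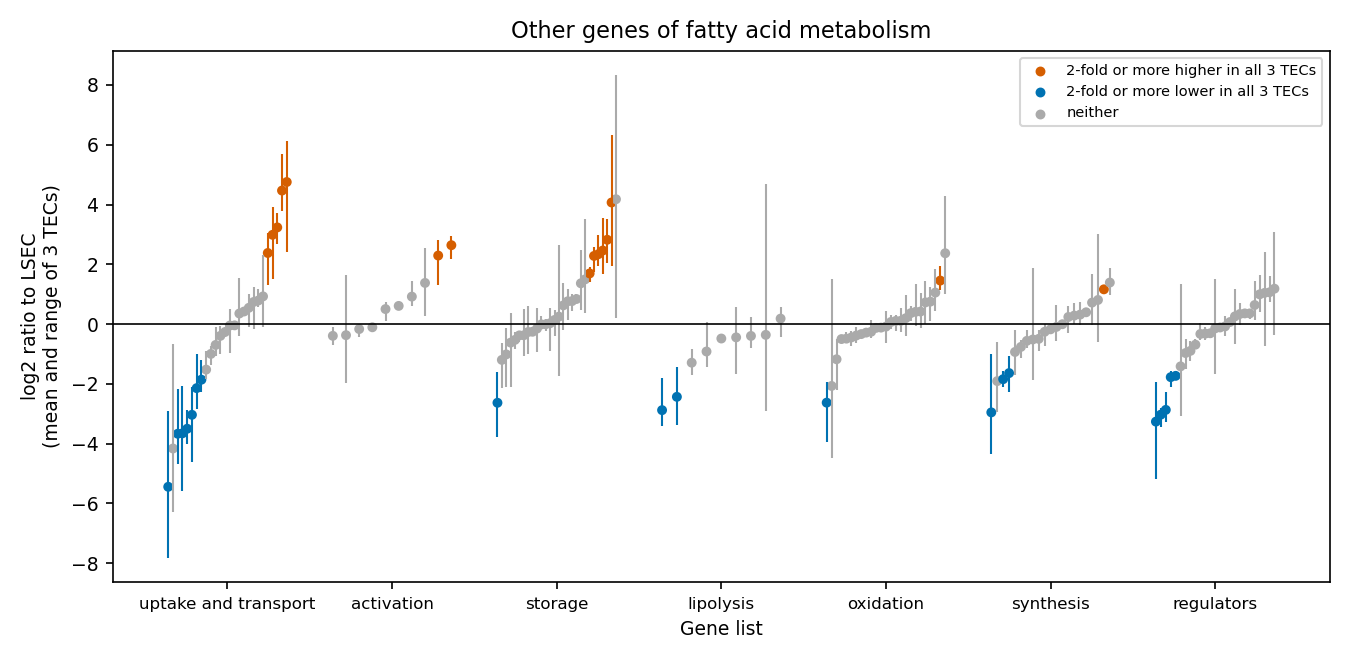
Mean log2 ratio to LSECs over the 3 TECs (points) and the range of the 3 (bars, not an error) for the 144 genes of the 7 lists found on the array, of which 131 were tested. Genes 2-fold or more higher in all 3 TECs (15, orange) lie mostly in uptake and transport and in storage, those lower (19, blue) mostly in uptake and transport and in regulators, and some ratios rest on a signal not well above background on 1 or more of the arrays.

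Oxidation was the list with fewest differences for its size, with 1 gene higher and 1 lower of 25. Acads, the short-chain acyl-CoA dehydrogenase, had log2 ratios of 1.28, 1.95 and 1.13. Pdk4, a kinase that shuts pyruvate out of oxidation, had -3.96, -1.98 and -1.95. The median log2 ratios of the list were -0.27, 0.004 and -0.16. Of 20 synthesis genes 1 was higher and 3 lower. Slc25a1, the citrate carrier, was the higher one, at 1.18, 1.23 and 1.07. Acacb, an acetyl-CoA carboxylase of mitochondria, had -1.56, -2.12 and -1.85. Elovl6, a fatty acid elongase, had -2.28, -1.07 and -1.57, and Thrsp, a protein of lipogenic tissues, had -4.37, -1.01 and -3.50. Being picked as lower in all 3 TECs, these 3 genes could not be higher in Hepa1-6 TECs, where Fasn was. In Hepa1-6 TECs 4 of the 21 listed synthesis genes were 2-fold or more higher than in LSECs, beside 25.1% of all genes. Me1 had the largest ratio there, at log2 3.01. The 3 lower ones, beside 22.0% of all genes, were those just named.

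Regulators were the list in which 5 of 24 genes were lower and none was higher. Notch1, a receptor of endothelial cell fate, had log2 signals of 10.56 in LSECs and 7.76, 7.71 and 7.11 in the TECs in the same order. Epas1, the hypoxia-inducible factor abundant in endothelium, had 16.37 in LSECs and 13.33, 13.08 and 14.09 in the TECs. Nr1h3, the liver X receptor alpha, had log2 ratios of -1.75, -1.76 and -1.69. Rxrg, a retinoid X receptor, was at -1.94 and -2.68 in HAK-1B and Hepa1-6 TECs and at least 9.27-fold lower in KYN-2 TECs. The fifth was Rxra, a partner of Pparg on DNA, named because the count was small, with ratios of -2.11, -1.56 and -1.66. The Pparg signal itself was within 2-fold of LSECs in each TEC. The endothelial markers were lower by a similar amount, with medians of -2.85, -2.58 and -1.60, and the part of their level in these 5 ratios was not tested.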

How the data were processed

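Cy3-labelled RNA of 5 samples was measured on 1-colour Agilent mouse oligonucleotide arrays, 1 per sample. The deposited intensities are processed signals, background-subtracted by the authors in Feature Extraction (10.7.1.1 in the file headers, 9.5.1.1 in the labels). The series' value table, deposited as quantile-normalized intensities, correlated with the values used at 0.9998 or more. Here, signals were log2-transformed and quantile normalized over the 5 arrays with Python 3.11.15, numpy 2.4.6 and pandas 2.3.3, spots of a probe were averaged, and 4460 lincRNA probes were left out. The probe with the highest mean signal stood for a gene, and a gene was tested where its probe was well above background on at least 1 array of each comparison. Groups follow the labels. limma 3.58.1 in R 4.3.3 fitted the 3 TECs against LSECs with Benjamini-Hochberg adjustment over all probes kept. A gene not well above background was bounded by the lowest signal well above background on that array. Alternatives were other normalizations, background corrections, filters and probe choices. The number of arrays limits the precision, and the median coefficient of variation of repeated spots was 2.62 to 3.08%. The 10 genes, the lists and the rules were chosen with earlier results of these data known. All 10 genes were described. Of each further list up to 4 genes with the largest ratio common to all 3 TECs were named, and of marker lists the genes not well above background on an endothelial array and the 2 brightest. Other genes named were chosen after their values were seen. Probe positions are those of build mm9 in the files, and exon annotation of that build was not used here. The limma fit and the size rule were tested on simulated data.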

Additional observations from a re-analysis of the deposited data

How the results depend on the processing

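No paired analysis was possible because there was a single array for each condition. Of the counts and medians, 98 recomputed values stayed within 1.5 times (counts) or within the spread between the 3 TECs (medians) and 16 moved, and of the mean ratios of single genes 50 stayed within that gene's spread, 7 moved and 3 turned. Under the 75th percentile, normexp, pairwise quantile, the value table and the median of all probes, the counts of genes 2-fold apart in all 3 TECs and of genes lower in HAK-1B than in KYN-2 TECs (6 or 7) stayed within 1.5 times. Without the Z-score, the size rule gave 2 higher and 1 lower gene in all 3 TECs, and 4 higher and 5 lower in cultured Hepa1-6 cells, where normexp and a signal well above background on both arrays each gave 1 higher. That filter left 12 lower genes of the further lists in place of 19, and fewer genes could be tested under it. Leaving out each TEC in turn gave 1 to 2 genes higher by 2-fold (2 without Hepa1-6 TECs) and 0 to 3 lower (3 without KYN-2 TECs), 0 in either direction by the size rule, 17 to 18 higher and 20 to 24 lower in the further lists, a median ratio of 0.0592 to 0.601 against 0.204, and 0 limma calls. The smallest p of the 10 genes in limma was 0.0400, for Gpihbp1 without KYN-2 TECs, with an adjusted p of 0.982. Measured relative to the median of the endothelial markers, a setting chosen after seeing the data, 6 genes were 2-fold higher in all 3 TECs and, of the 7 lower in HAK-1B than in KYN-2 TECs, 4 were so relative to the markers' median difference between these arrays and 2 relative to each TEC's own marker median. The median ratio was then 2.55 over the TECs, 2.48 in HAK-1B, 2.89 in Hepa1-6 and 2.35 in KYN-2 TECs. In each TEC the median of all genes (log2 -0.05 to 0.09) also lay 2-fold or more above the marker median (log2 -2.85 to -1.60). The share of all genes was not counted under this setting, so the counts of 6, 4 and 2 cannot be set beside all genes. The mean ratio turned for Cd36 from -1.07 to 1.27, for Gpihbp1 from -1.80 to 0.54 and for Fabp4 from -1.26 to 1.08. This setting shifts all genes of a TEC by the same amount, so these turns follow from the setting and are not particular to the 3 genes. The median of the endothelial markers was lower than in LSECs in all 3 TECs, and the cause of that was not tested. Cd36 in cultured cells, and the further genes not well above background on an array, have only a bound there.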
